A study of Homo sapiens with 18 samples.

Results

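The genes described here are the matrix metalloproteinases (MMP), the ADAM and ADAMTS proteases and their tissue inhibitors (TIMP) in LNCaP, a human prostate cancer cell line. They were taken as every gene with a coding RefSeq transcript whose symbol is MMP, ADAM, ADAMTS or TIMP followed directly by a number, which gave 68 of 28100 genes. These were 25 MMP, 20 ADAM, 19 ADAMTS and 4 TIMP symbols. MMP24OS and MMP24-AS1-EDEM2 carry such a symbol but encode neither a protease nor an inhibitor, so the counts below are over the other 66 genes.

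RNA with poly(A) tails was sequenced from 18 libraries in 6 groups of 3, all of LNCaP cells labelled wild type and treated for 48 h. The control group received RPMI medium with 10% heat-inactivated serum. The M0, M1 and M2 groups received medium conditioned by macrophages (unpolarised, M1-polarised or M2-polarised) derived from THP-1, a human monocytic leukaemia line, diluted 1:4 with the control medium. The last 2 groups received the M1 medium with IKK16, an inhibitor of the IκB kinases that activate NF-kB, at 0.7 μmol/l, or with the same amount of its solvent DMSO. The control, M0, M1 and M2 groups received no DMSO. The labels do not say how the macrophages were polarised, nor whether the 3 replicates of a group are separate cultures, so the p-values rest on the scatter among these libraries alone, and that scatter may be technical. Each library held between 24165021.5 and 33761969 counts in genes.

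MMPs are secreted or membrane-bound zinc proteases that cut collagens, laminins, fibronectin and other matrix proteins, and most are made as inactive precursors. ADAMs are membrane proteins, of which those with a working catalytic site release the outer parts of growth factors, cytokines, receptors and adhesion proteins from the cell surface, while others lack the catalytic site and act in cell adhesion. ADAMTS proteases are secreted and cut proteoglycans, procollagens or blood proteins such as von Willebrand factor. TIMPs bind the catalytic site of the active enzymes and block it.

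The promoters shown first are those of MMP7, MMP10 and MMP20, which share short motifs. MMP7 and MMP10 rose from a low level in M1 medium. MMP20, which lies between them in the same gene cluster, stayed under the filter on low counts. It had 22.5 counts over all 18 libraries, too few to judge its response. The sequences are the 250 bases before each start site from RefSeq on GRCh38.p14, read 5′ to 3′ on the minus strand, at chr11:102530748-102530997, chr11:102780629-102780878 and chr11:102625333-102625582. Capitals mark the AP-1 motif TGANTCA, the site of JUN and FOS proteins, and then the TATA box TATAAA.
MMP7: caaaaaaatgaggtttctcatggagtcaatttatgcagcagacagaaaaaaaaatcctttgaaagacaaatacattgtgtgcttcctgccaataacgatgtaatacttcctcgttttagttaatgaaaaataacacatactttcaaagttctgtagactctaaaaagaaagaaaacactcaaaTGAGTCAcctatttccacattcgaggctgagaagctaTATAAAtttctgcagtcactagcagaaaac
MMP10: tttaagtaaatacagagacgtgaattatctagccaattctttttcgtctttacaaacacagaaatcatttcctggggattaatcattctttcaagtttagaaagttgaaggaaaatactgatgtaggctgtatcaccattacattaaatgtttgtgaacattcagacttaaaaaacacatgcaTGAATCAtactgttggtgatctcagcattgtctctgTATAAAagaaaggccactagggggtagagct
MMP20: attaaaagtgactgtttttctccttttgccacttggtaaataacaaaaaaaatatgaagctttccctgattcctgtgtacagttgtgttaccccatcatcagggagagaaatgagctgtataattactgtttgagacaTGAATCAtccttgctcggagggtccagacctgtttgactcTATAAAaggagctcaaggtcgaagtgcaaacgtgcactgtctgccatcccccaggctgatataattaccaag

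The AP-1 motif begins 67 bases before the start site in both MMP7 and MMP10, and 112 bases before it in MMP20. The TATA box begins 30 bases before the start in MMP7, 31 in MMP10 and 72 in MMP20. Promoters were found for 39 of the 66 genes, of which 19 were among the genes tested below. A gene not named here may therefore lack a promoter entry and not the motif. Searched on both strands, TGANTCA was in 4 of these 39 (ADAMTS12, MMP10, MMP20 and MMP7) and in 6.60% of the 27305 promoters in the table, and TATAAA was in 7 of 39 and in 11.1% of all. The matches shown do not overlap each other, and a match describes letters and not a bound site. ADAM10 and ADAM17, the best-known sheddases, rose together in M1 medium and have no AP-1 or TATA match in this window, but each holds a match to the NF-kB consensus, as do ADAM19 and ADAMTS3 (4 of 39, and 9.57% of all promoters). Their matches are in capitals in the stretches of 60 bases at chr15:58749708-58749767 and chr2:9555854-9555913, both on the minus strand.
ADAM10: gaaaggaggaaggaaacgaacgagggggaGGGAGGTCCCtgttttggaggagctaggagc
ADAM17: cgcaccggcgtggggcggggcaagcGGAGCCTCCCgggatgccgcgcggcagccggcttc

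Of the 66 genes, 34 passed the filter on low counts and were tested, 30 had counts but stayed under it, and ADAM29 and ADAM30 had no count in any library. The tested genes were 11 of 23 MMPs, 14 of 20 ADAMs, 7 of 19 ADAMTSs and 2 of 4 TIMPs. The genes under the filter were ADAM19, ADAM20, ADAM32 and ADAM33; ADAMTS2, 4, 5, 6, 8, 9, 10, 12, 14, 16, 18 and 19; MMP1, 2, 3, 8, 9, 14, 20, 21, 23B, 26, 27 and 28; and TIMP3 and TIMP4. Their highest group mean was 0.450 CPM (counts scaled to library size), that of MMP1. Both gelatinases were among them: MMP9 had 37 counts and MMP2 had 1.5 counts over all 18 libraries, where values come in steps of 0.5. MMP14, the membrane protease that activates MMP2, had 61 counts. A library with no count for a gene allows up to 3 counts, or 0.0902 to 0.127 CPM, and this limit covers counting error only because PCR copies were not marked.

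Scaled by transcript length, which allows genes to be compared, the highest levels in control cells were those of ADAM15 at 168 ± 4.19, ADAM9 at 110 ± 8.34, ADAMTS1 at 76.7 ± 4.06 and MMP15 at 32.9 ± 2.27 CPM per kb (SD, n = 3). These 4 did not overlap each other, while TIMP2, at 11.7 ± 0.427 CPM per kb, overlapped ADAM10 at 11.2 ± 0.964. MMP7 stood at rank 16 of 34 in control cells, with 2.21 ± 0.575 CPM per kb. In M1 medium MMP7 was first, with 307 ± 29.4 CPM per kb against 175 ± 10.4 for ADAM15, and its libraries did not overlap those of ADAM15. ADAM10 moved ahead of TIMP2 in M1 medium, at 20.7 ± 0.516 against 13.5 ± 1.06 CPM per kb.

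**Figure D1:**
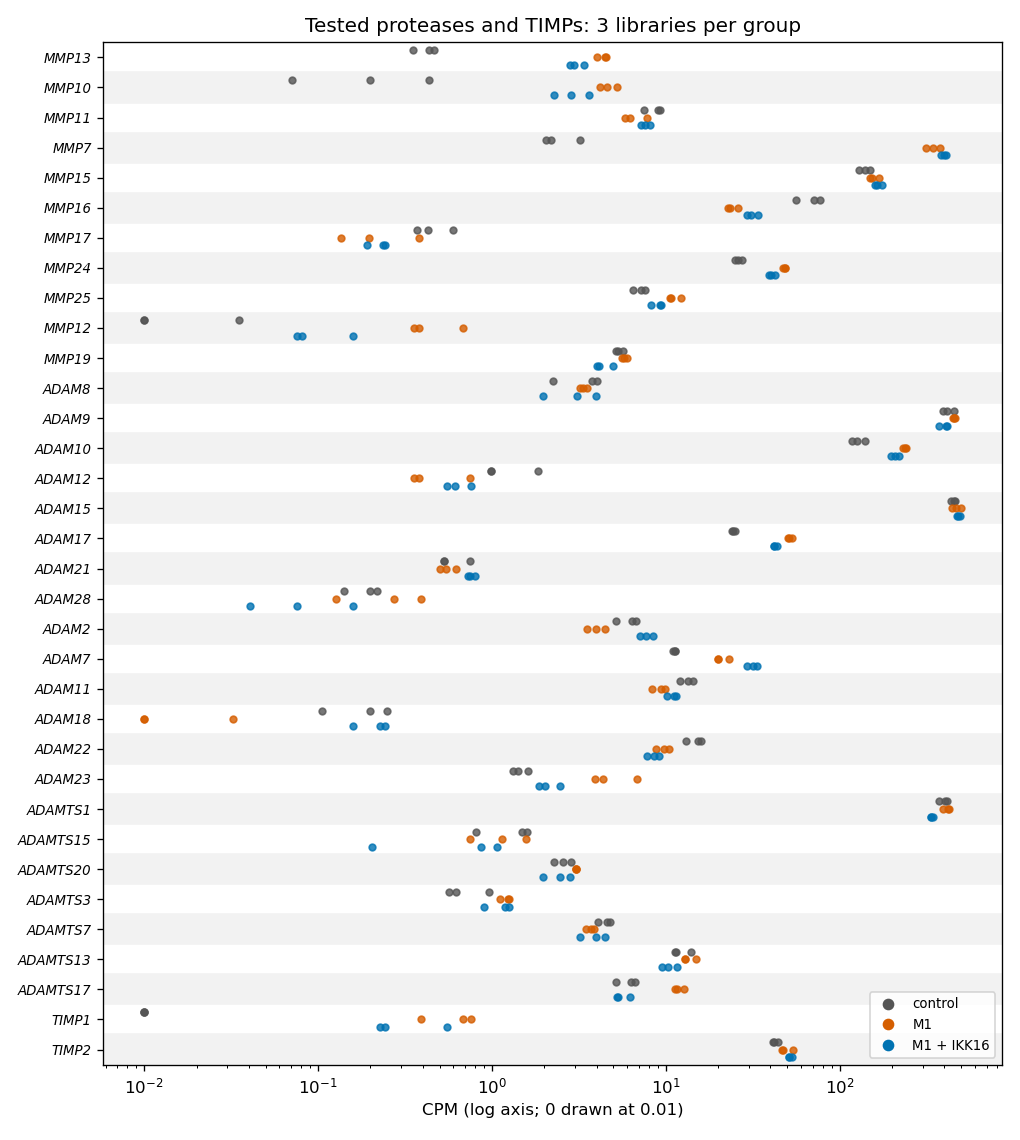
CPM on a log axis for each of the 34 tested genes in the control, M1 and M1 with IKK16 groups, 1 point per library and 0 drawn at 0.01. MMP7, MMP10, MMP13 and MMP12 show the M1 points far to the right of the control points, and MMP16 shows them to the left.

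In M1 medium 15 of the 34 tested genes rose and 7 fell relative to control, by edgeR's quasi-likelihood test at an adjusted p under 0.05. Over all 17023 tested genes 32.4% were higher and 32.4% lower, and no test of the list against other genes was made. Among the 11 MMPs 7 were higher and 2 lower, among the 14 ADAMs 4 were higher and 5 lower, among the 7 ADAMTSs 2 were higher and none lower, and both tested TIMPs were higher. MMP10, MMP12 and TIMP1 passed the filter only through groups with M1 medium, and ADAM18 only through groups without it. The direction of these calls was therefore largely set by the filter, and they are part of all these counts. Changes of at least 2-fold were found for 7 higher and 3 lower genes (10.2% and 7.97% of all genes). The median log2 fold change of the 34 was 0.16, against -0.01 over all genes. In bulk RNA, a change in the level per cell and a change in the share of cells that make the RNA cannot be told apart.

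MMP7, matrilysin, a small secreted protease that cuts E-cadherin and many matrix proteins, lies on chromosome 11 (102520508 to 102530747, GRCh38). Its level was 2.18, 2.05 and 3.23 CPM in the control libraries and 344, 378 and 312 CPM in M1 medium. With M0 medium it was 4.84, 5.43 and 5.40 CPM, and with M2 medium 5.51, 4.80 and 2.77 CPM. Every M1 library was far above every library of these other 3 groups, and the log2 fold change of M1 against control was 7.10 (SE 0.14, adjusted p 5.63e-22), or 137-fold. The M0 libraries also lay above all control libraries, whereas the M2 and control libraries overlapped.

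MMP10, a stromelysin that cuts proteoglycans and activates other MMPs, lies on the same chromosome (102770502 to 102780628). It had 0.199, 0.0707 and 0.435 CPM in control and 4.18, 5.25 and 4.60 CPM in M1 medium, a log2 fold change of 4.25 (SE 0.33, adjusted p 6.09e-11). With M0 medium it had 0.0768, 0.0734 and 0.329 CPM and with M2 medium 0.156, 0.288 and 0.158 CPM, which overlap the control values. MMP13, a collagenase of bone and cartilage (102942995 to 102955732), had 0.463, 0.353 and 0.435 CPM in control and 4.56, 4.50 and 4.04 CPM in M1 medium. Its log2 fold change was 3.37 (SE 0.26, adjusted p 6.18e-11), and no M1 library overlapped a control library. It had 0.998, 0.441 and 0.329 CPM with M0 medium, and 0.563, 0.608 and 0.633 CPM with M2 medium.

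MMP12, the macrophage elastase, rose on few counts: 0, 1 and 0 in the control libraries and 11.5, 19.5 and 11 in M1 medium. Its ratio of summed counts per library size was 42.6, with a 95% Poisson interval of 7.25 to 1721 that covers counting error only. MMP1, the interstitial collagenase, was under the filter, with 0, 1 and 0.5 counts in control and 9, 6 and 10.5 in M1 medium (ratio 24.8, interval 4.05 to 1017). In an edgeR fit without a filter MMP1 was called (log2 fold change 4.17, adjusted p 0.000665), as were 3 other genes under the filter: TIMP3, higher, and ADAM33 and ADAMTS12, lower.

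MMP7, MMP10, MMP13, MMP12 and MMP1 belong to a cluster of 9 MMP genes within 435.2 kb of chromosome 11 (102520508 to 102955732). In chromosome order it holds MMP7, MMP20, MMP27, MMP8, MMP10, MMP1, MMP3, MMP12 and MMP13. All 4 tested genes of the cluster were higher in M1 medium (32.4% of all genes). MMP10 and MMP12 had group means of at most 0.235 and 0.0843 CPM without M1 medium. The filter kept these 2 through the groups with M1 medium, so their direction was largely set by it. The other 5 were under the filter: over the 3 M1 libraries MMP20 had 1 count, MMP3 had 3, and MMP27 and MMP8 had 0. Genes in the cluster therefore ranged from 31552.5 counts for MMP7 to 0 for MMP27 and MMP8 in the same M1 libraries.

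**Figure D2:**
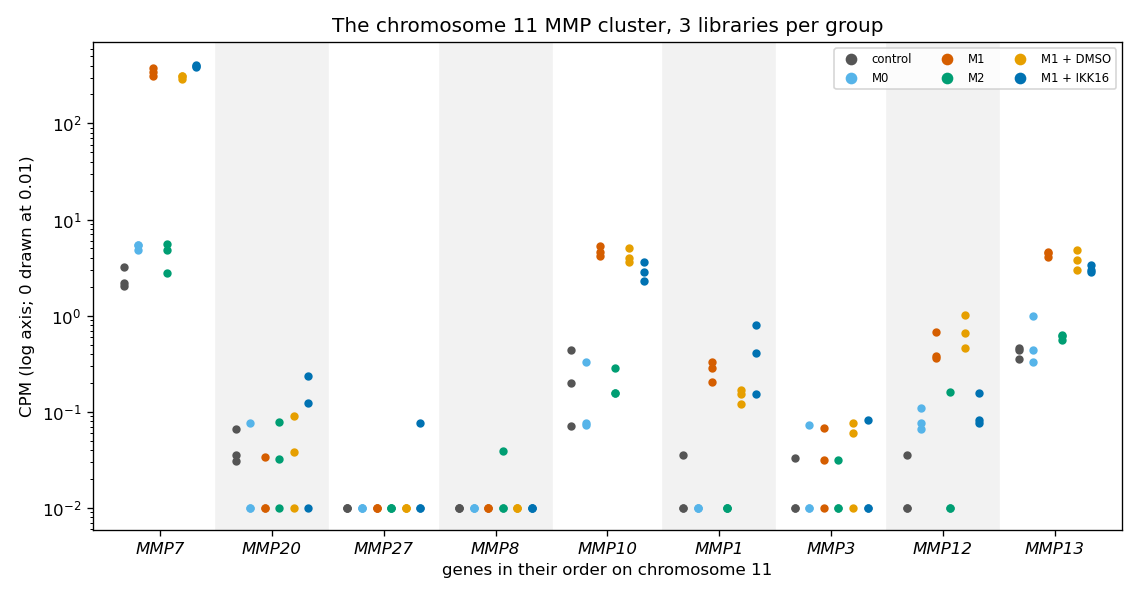
CPM on a log axis for the 9 MMP genes of the chromosome 11 cluster, in chromosome order, with 1 point per library in the 6 groups and 0 drawn at 0.01. The 3 groups with M1 medium stand above the others for MMP7, MMP10, MMP1 and MMP13, and MMP27 and MMP8 lie at or near 0 throughout.

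Of the 5 tested membrane-bound MMPs 3 rose and 1 fell (32.4% and 32.4% of all genes). MMP16, a transmembrane MMP, had 71.3, 56.2 and 77.0 CPM in control and 26.0, 22.8 and 23.4 CPM in M1 medium, a fall of 2.83-fold without overlap (log2 fold change -1.50, SE 0.11, adjusted p 1.69e-11). It had 56.7, 77.5 and 68.7 CPM with M0 medium and 64.9, 73.9 and 74.0 CPM with M2 medium, within or near the control range. MMP24, another transmembrane MMP, rose from 26.2 ± 1.22 to 48.3 ± 0.682 CPM (SD, n = 3), and MMP25, which is held by a lipid anchor, from 7.11 ± 0.578 to 11.2 ± 0.941 CPM. MMP15 rose by 0.17 on the log2 scale, a call that was lost without control replicate 3 (adjusted p 0.0758) or M1 replicate 3 (0.0960). MMP17 did not pass (log2 fold change -0.94, adjusted p 0.0582).

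Of the exon bases of MMP24, 18.1% overlap MMP24OS on the opposite strand, and of those of MMP25, 37.4% overlap MMP25-AS1. The use of strand in counting is not given, so reads of these pairs cannot be told apart. MMP24OS had a log2 fold change of 0.82 and MMP25-AS1 of 0.62 in M1 medium, and both rose. Of the remaining secreted MMPs, MMP11, a stromelysin activated inside the cell by furin, fell from 8.59 ± 0.970 to 6.63 ± 0.998 CPM, with overlapping libraries, and MMP19 did not pass.

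Among the 8 tested ADAMs with a catalytic site 2 rose, ADAM10 and ADAM17, and 1 fell, ADAM12. Over all genes 32.4% were higher and 32.4% lower. ADAM10, which releases Notch receptors, E-cadherin and other proteins, had 126, 117 and 139 CPM in control and 238, 242 and 230.4 CPM in M1 medium, a log2 fold change of 0.89 (SE 0.07, adjusted p 6.8e-11). It had 118 ± 10.2 CPM with M0 medium and 123 ± 9.64 CPM with M2 medium. ADAM17, the TNF-converting enzyme on chromosome 2 (9488486 to 9555830), had 24.4, 24.2 and 24.9 CPM in control and 51.1, 53.5 and 50.2 CPM in M1 medium. Its log2 fold change was 1.08 (SE 0.06, adjusted p 1.31e-13), and the lowest M1 library stood above the highest library of the control, M0 and M2 groups. ADAM17 had 25.8, 28.0 and 25.7 CPM with M0 medium and 26.8, 27.1 and 25.9 CPM with M2 medium. IAH1, which overlaps 21.8% of the exon bases of ADAM17 on the opposite strand, fell in M1 medium (log2 fold change -0.46, adjusted p 0.000125).

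ADAM12, a growth-factor sheddase, lies on chromosome 10 (126012391 to 126388477). It had 0.993, 1.84 and 0.994 CPM in control and 0.380, 0.750 and 0.359 CPM in M1 medium, a log2 fold change of -1.35 (SE 0.34, adjusted p 0.00131) with no overlap. With M0 medium it had 1.19, 1.58 and 1.58 CPM and with M2 medium 1.06, 0.768 and 1.19 CPM. ADAM9 and ADAM15, the most abundant members of this class, did not pass: the 95% intervals of their log2 fold changes ran from 0.00 to 0.22 for ADAM9 and from -0.03 to 0.15 for ADAM15. ADAM8, ADAM21 and ADAM28 did not pass either.

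All 6 tested ADAMs without a catalytic site were called, 2 higher and 4 lower (32.4% and 32.4% of all genes). ADAM23, a neuronal adhesion protein that binds LGI proteins, lies on chromosome 2 (206443532 to 206621127) and had 1.32, 1.41 and 1.62 CPM in control. It had 6.83, 4.37 and 3.91 CPM in M1 medium, all above control, with a log2 fold change of 1.79 (SE 0.20, adjusted p 4.76e-08). With M0 medium it had 0.921, 1.18 and 1.12 CPM and with M2 medium 1.38, 1.18 and 1.74 CPM. Its relatives ADAM22 and ADAM11 fell, from 14.8 ± 1.45 to 9.66 ± 0.859 CPM and from 13.3 ± 1.08 to 9.19 ± 0.805 CPM. Of the ADAMs known from the epididymis and sperm, ADAM7 rose from 11.2 ± 0.126 to 21.1 ± 1.82 CPM and ADAM2 fell from 6.10 ± 0.825 to 4.00 ± 0.479 CPM. ADAM18, whose direction was largely set by the filter, was called lower on 1 count in M1 medium against 17 in control, rounded per library.

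Of the 7 tested ADAMTS genes, ADAMTS17 and ADAMTS3 rose and none fell (32.4% and 32.4% of all genes). ADAMTS17 went from 6.06 ± 0.801 to 11.9 ± 0.735 CPM (log2 fold change 0.97, SE 0.11, adjusted p 4.12e-08). ADAMTS3, which processes procollagen and activates a lymphatic growth factor, went from 0.715 ± 0.214 to 1.20 ± 0.0818 CPM. That call was lost without control replicate 2 (adjusted p 0.0624) or control replicate 3 (0.0542). ADAMTS1, a versican-cutting protease with 398 ± 21.1 CPM in control and 412 ± 18.1 CPM in M1 medium, did not pass, nor did ADAMTS7, ADAMTS13, ADAMTS15 and ADAMTS20.

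Among the inhibitors, TIMP2, which blocks MMP2 and also takes part in its activation, was the only one at an appreciable level. It had 44.3, 42.1 and 41.3 CPM in control and 53.8, 46.8 and 47.5 CPM in M1 medium, a rise of 0.21 on the log2 scale (SE 0.06, adjusted p 0.00579). The call was lost without M1 replicate 1 (adjusted p 0.0572). TIMP2 had 37.6, 39.7 and 40.3 CPM with M0 medium, and 40.8, 37.4 and 42.8 CPM with M2 medium.

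TIMP1, an inhibitor of most secreted MMPs, had no count in any control or M2 library and 2 counts in 1 M0 library. In M1 medium it had 23.5, 20.5 and 11.5 counts, or 0.759, 0.682 and 0.391 CPM, which is at least 6.14-fold higher than the limit of 3 counts per library in control (adjusted p 4.34e-05). TIMP3, the inhibitor that is bound to the matrix and also blocks ADAM17, had 2, 2 and 0 counts in control, 0, 2.5 and 0 with M0 medium, 10.5, 6.5 and 7 with M1 medium and 3, 2 and 5 with M2 medium. In the edgeR fit without a filter its log2 fold change of M1 against control was 2.39 (SE 0.87, adjusted p 0.0195). TIMP4 had 6 counts in all 18 libraries, none of them in control, M0 or M1 medium. Summed over each family, without scaling by length, MMP transcripts went from 259 ± 4.36 CPM in control to 609 ± 22.3 CPM in M1 medium (SD, n = 3), and MMP7 alone made up 56.7% of the M1 sum. Without MMP7 the MMP sum was 257 ± 4.54 CPM in control and 264 ± 10.9 CPM in M1 medium, and the libraries overlapped. ADAM transcripts went from 1077 ± 34.1 to 1267 ± 10.5 CPM, ADAMTS transcripts from 426 ± 21.1 to 447 ± 19.4 CPM, with overlap, and TIMP transcripts from 42.6 ± 1.59 to 50.2 ± 4.04 CPM.

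In M0 and M2 media few of these genes passed. M0 medium gave 1 higher gene and 1 lower gene (6.52% and 5.25% of all genes), and M2 medium likewise 1 and 1 (4.79% and 3.7%). MMP7 was the higher gene in both, with a log2 fold change of 1.06 (SE 0.18, adjusted p 0.00556) for M0 and 0.82 (SE 0.19, adjusted p 0.0115) for M2; both comparisons use the same control libraries. The M0 call of MMP7 was lost without control replicate 1 (adjusted p 0.0521). Its M2 call was lost without control replicate 1 (0.0764), M2 replicate 1 (0.110) or M2 replicate 2 (0.0580), and with the 2 groups fitted alone (0.0808).

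ADAMTS13, the protease of von Willebrand factor, had 11.3, 14.0 and 11.5 CPM in control and 9.06, 8.59 and 9.08 CPM with M0 medium (log2 fold change -0.46, SE 0.10, adjusted p 0.0108). This call was lost without control replicate 1 (adjusted p 0.0501) or M0 replicate 1 (0.0575). ADAMTS1 had 417, 375 and 401 CPM in control and 338, 343 and 368 CPM with M2 medium (log2 fold change -0.19, SE 0.05, adjusted p 0.0345). It was lost without control replicate 1 (adjusted p 0.215), control replicate 3 (0.0803), M2 replicate 1 (0.211) or M2 replicate 2 (0.133), with the 2 groups alone (0.140), and after removal of a trend with transcript length (0.0674). Across genes, log2 fold changes fell with transcript length in both comparisons (Spearman's rho -0.34 for M0 and -0.29 for M2), and the 742 genes with transcripts about as long as that of MMP7, which has 1125 bases, had medians of 0.12 and 0.09. With this trend removed MMP7 passed in both, with log2 fold changes of 0.95 (adjusted p 0.0040) for M0 and 0.72 (adjusted p 0.0144) for M2.

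Between M2 and M0 media none of the 34 genes passed with edgeR (0.106% of all genes) or with DESeq2, and 1 had an unadjusted p under 0.05. Set directly against M0 medium, M1 medium had 19 genes higher and 7 lower (33.7% and 33.4% of all genes), and against M2 medium 18 and 7 (34.1% and 33.4%). These comparisons share the M1 libraries with the one against control.

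IKK16 was compared with DMSO within M1 medium. Of the 34 genes, 4 were higher and 9 lower with IKK16, against 13.4% and 13.8% of all genes, and 3 of the 9 fell by at least 2-fold (1.69% of all genes), while no gene rose by as much (0.869%). This comparison shares no library with that of M1 against control. ADAM28 and MMP12, which fell by at least 2-fold, lay near the filter. Their highest group means, 0.437 and 0.713 CPM, were those with DMSO. Their direction was therefore partly set by the filter, and they are part of these counts with IKK16. Of the 15 genes higher in M1 medium, 4 were lower with IKK16: ADAM23, ADAMTS17, MMP12 and MMP24. They are 26.7% of the 15, and over all genes 31.6% of those higher in M1 medium were lower with IKK16. They are also 44.4% of the 9, and over all genes 74.4% of those lower with IKK16 were higher in M1 medium. Another 2 of the 15, MMP7 and ADAM7, were higher still with IKK16 (13.3%, against 5.09% over all genes). The other 9, among them ADAM10, ADAM17, MMP10 and MMP13, did not pass. Of the 7 genes lower in M1 medium, 2 were higher with IKK16, MMP16 and ADAM2 (28.6%, against 29.1% over all genes).

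**Figure D3:**
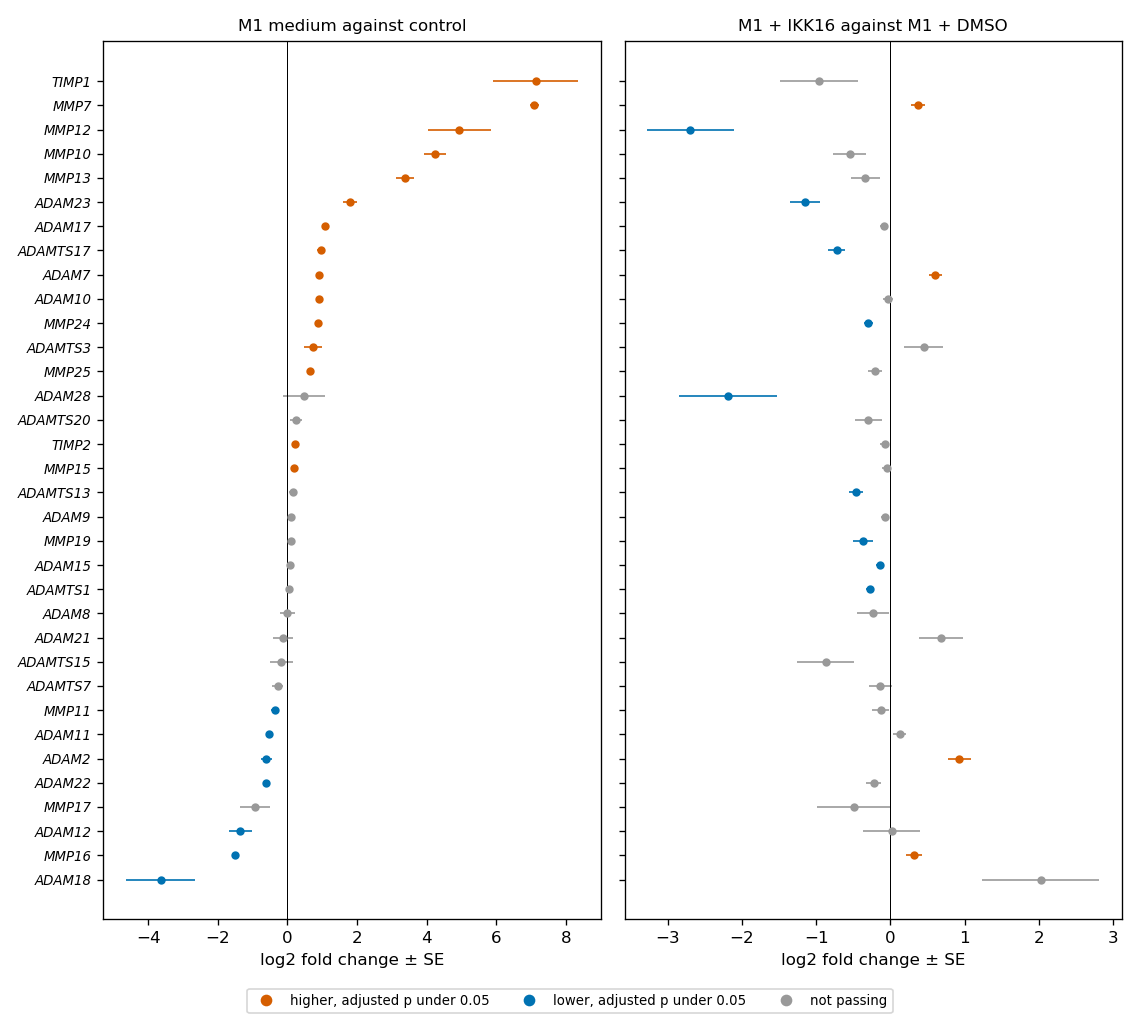
Log2 fold changes with their SE for the 34 tested genes, ordered by the change in M1 medium against control on the left, with M1 with IKK16 against M1 with DMSO on the right. Orange and blue points passed the test, 15 higher and 7 lower on the left and 4 higher and 9 lower on the right. The value drawn for TIMP1 on the left depends on the fit's prior count, since its control libraries had no count.

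MMP7 had 315, 312 and 289.9 CPM with DMSO and 409, 398 and 382 CPM with IKK16, which do not overlap. Its log2 fold change was 0.38 (SE 0.09, adjusted p 0.00463), and with DESeq2 it was 0.38 and missed the threshold (adjusted p 0.0585). MMP10 had 3.64, 5.02 and 4.00 CPM with DMSO and 3.64, 2.85 and 2.28 CPM with IKK16. It did not pass (log2 fold change -0.54, SE 0.22, adjusted p 0.0734), but passed without a filter (0.0426), with the 2 groups alone (0.0254) or without M1 with IKK16 replicate 1 (0.0422). MMP13 had 4.87, 3.82 and 2.96 CPM with DMSO and 3.40, 2.97 and 2.82 CPM with IKK16, with overlap (log2 fold change -0.34, adjusted p 0.217). MMP12 had 23.5, 22.5 and 11.5 counts with DMSO and 4, 1.5 and 2 with IKK16 (log2 fold change -2.69, SE 0.58, adjusted p 0.0013).

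MMP16 had 26.4, 25.3 and 24.0 CPM with DMSO and 30.9, 34.0 and 29.5 CPM with IKK16 (log2 fold change 0.32, SE 0.11, adjusted p 0.0373). The call was lost without any 1 of the 3 DMSO replicates (adjusted p up to 0.111) and without IKK16 replicate 1 (0.0641) or 2 (0.143). MMP24 fell from 50.0 ± 2.78 to 40.8 ± 1.73 CPM (log2 fold change -0.30, adjusted p 0.00063), and MMP24OS fell with it (-0.38). MMP19 was called lower (log2 fold change -0.36, adjusted p 0.0461), but not with DESeq2 (0.0724), without a filter (0.0587), or without M1 with DMSO replicate 3 (0.211), IKK16 replicate 2 (0.138) or IKK16 replicate 3 (0.169), among other settings. TMEM198B, which overlaps 18.6% of the exon bases of MMP19 on the opposite strand, also fell (log2 fold change -0.33).

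ADAM23 had 4.11, 4.57 and 5.43 CPM with DMSO and 2.45, 1.87 and 2.02 CPM with IKK16, a fall of 2.22-fold with no overlap (log2 fold change -1.15, SE 0.20, adjusted p 0.000134). ADAM7 went from 20.6 ± 2.56 to 31.5 ± 2.03 CPM (log2 fold change 0.61, adjusted p 1.47e-05) and ADAM2 from 4.06 ± 0.296 to 7.78 ± 0.659 CPM (0.93, adjusted p 0.000103). The main sheddases did not pass: ADAM10 had 204, 215 and 219 CPM with DMSO and 220.1, 209 and 198 CPM with IKK16, and ADAM17 had 42.1, 45.5 and 47.4 CPM and then 41.7, 41.9 and 43.7 CPM. Their log2 fold changes were -0.03 (95% interval -0.16 to 0.11, adjusted p 0.820) and -0.08 (-0.20 to 0.03, adjusted p 0.307). ADAM12 had 0.848, 0.361 and 0.770 CPM with DMSO and 0.554, 0.610 and 0.761 CPM with IKK16, and did not pass. ADAM28, with 36 rounded counts over the DMSO libraries and 7 over the IKK16 libraries, was called lower (log2 fold change -2.19, adjusted p 0.0167), a call lost without DMSO replicate 1 (0.0557) or IKK16 replicate 2 (0.0754) or 3 (0.0568).

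**Figure D4:**
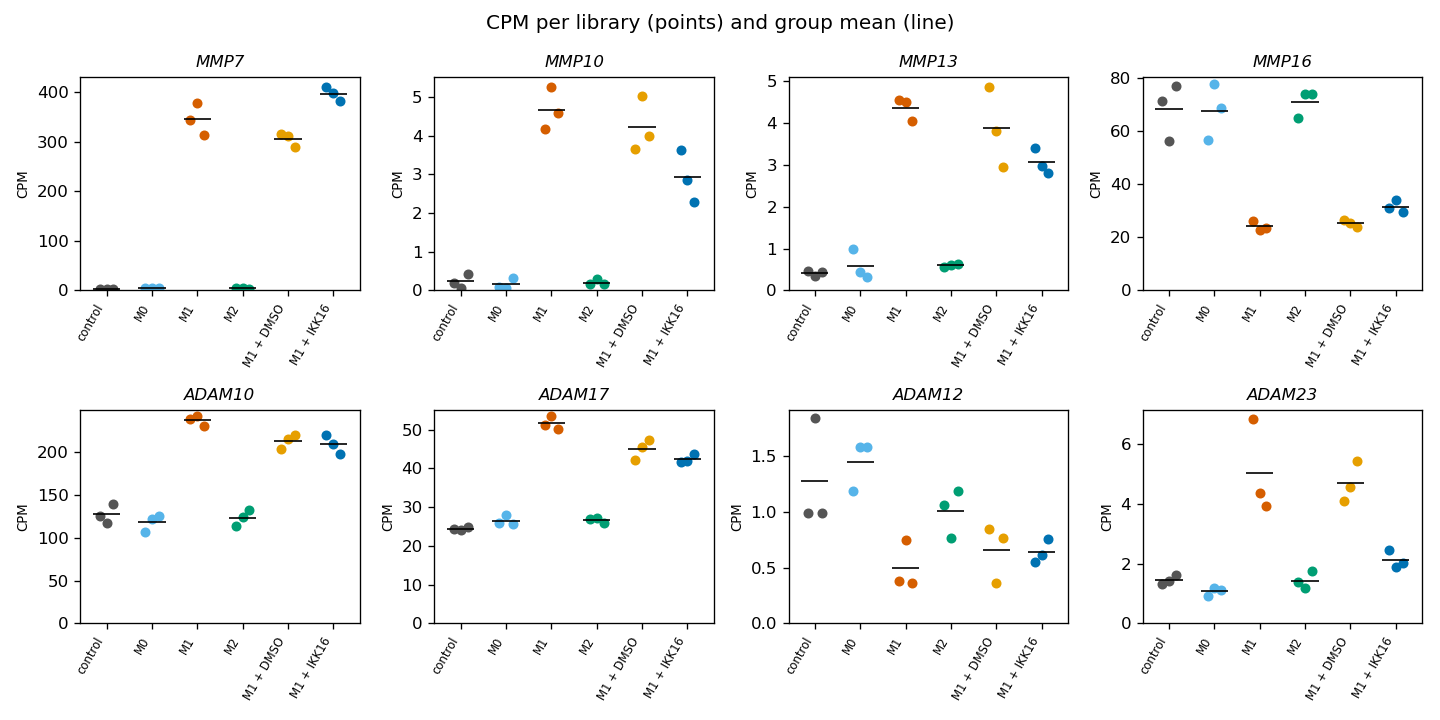
CPM in each library (points) and group means (lines) of MMP7, MMP10, MMP13, MMP16, ADAM10, ADAM17, ADAM12 and ADAM23 in the 6 groups, on linear axes from 0. The 3 groups with M1 medium lie apart from the other 3 for MMP7, MMP10, MMP13, MMP16, ADAM10, and ADAM17, and ADAM23 with IKK16 lies between control and M1 with DMSO.

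Among the 7 tested ADAMTS genes, those called with IKK16 were all lower, and over all genes 13.4% were higher and 13.8% lower. ADAMTS17 went from 9.29 ± 0.770 to 5.61 ± 0.547 CPM (log2 fold change -0.72, adjusted p 5.06e-05), ADAMTS13 from 14.5 ± 0.486 to 10.5 ± 1.07 CPM (-0.46) and ADAMTS1 from 407 ± 1.45 to 338 ± 5.92 CPM (-0.27). TIMP1 had 4, 26.5 and 26.5 counts with DMSO and 13.5, 5.5 and 6 with IKK16, which overlap, and did not pass (log2 fold change -0.96, SE 0.53, adjusted p 0.198). It passed without M1 with DMSO replicate 1 (log2 fold change -1.36, adjusted p 0.0432). TIMP2 had 55.5, 51.8 and 56.4 CPM with DMSO and 51.0, 53.0 and 51.4 CPM with IKK16, and did not pass (log2 fold change -0.08). TIMP3 had 7.5, 19.5 and 2 counts and then 3, 1 and 0, and was called lower in the fit without a filter (adjusted p 0.0206). ADAMTS12, the other gene under the filter called there, had 23 of its 28 DMSO counts in replicate 1. TIMP4 had 0, 1 and 0 counts with DMSO and 0, 4 and 0 with IKK16.

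Against the control group, which had no DMSO and also serves the comparison with M1 medium, M1 medium with IKK16 had 12 genes higher and 5 lower (26.4% and 26.1% of all genes). MMP7 was 7.30 higher on the log2 scale, MMP10 3.57, MMP13 2.86, ADAM17 0.79 and ADAM10 0.71, and MMP16 was at -1.12. ADAM23 (0.54, adjusted p 0.0554), ADAMTS17 (-0.11) and MMP12 (2.83, adjusted p 0.067) did not pass. DMSO itself, against M1 medium without it, called only ADAM15 among the 34 (2.71% of all genes were higher and 1.82% lower). ADAM15 went from 469.9 ± 28.0 to 529.5 ± 18.8 CPM with DMSO (log2 fold change 0.17) and was at 476.7, 470.7 and 492.1 CPM with IKK16 (-0.14, adjusted p 0.0248). Both calls were lost in most fits with 1 library left out, for instance without M1 with DMSO replicate 1 (adjusted p 0.190 and 0.144).

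Genes that work with these proteases were measured as lists. Of 9 iRhom, FRMD8 and tetraspanin genes, whose products carry ADAM17 or ADAM10 to the cell surface, 7 were higher and 1 lower in M1 medium (32.4% and 32.4% of all genes), with a median log2 fold change of 0.48, and 6 were lower and none higher with IKK16 (13.8% and 13.4% of all genes). RHBDF2, the iRhom that matures ADAM17 in immune cells, rose from 12.9 ± 0.606 to 36.8 ± 2.14 CPM and TSPAN15, a partner of ADAM10, from 49.4 ± 5.94 to 199 ± 2.04 CPM. With IKK16 against DMSO, RHBDF2 changed by -0.41 and TSPAN15 by -0.61 on the log2 scale. Of 19 tested genes for proteins shed by ADAM10 or ADAM17, 16 were higher and none lower in M1 medium (32.4% and 32.4% of all genes), with a median of 1.12. ICAM1 rose from 0.0767 ± 0.0671 to 23.5 ± 1.25 CPM, TNF from 0.0553 ± 0.0197 to 9.47 ± 0.716 CPM and CD44 from 0.550 ± 0.191 to 4.50 ± 0.413 CPM, and 7 of the 19 were lower with IKK16 and 1, HBEGF, higher (13.8% and 13.4% of all genes).

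Of 17 tested matrix substrates 9 were higher and 5 lower in M1 medium (32.4% and 32.4% of all genes), and 6 were lower and none higher with IKK16 (13.8% and 13.4%). LAMB3, a laminin chain, rose from 0.401 ± 0.152 to 138 ± 10.8 CPM and FN1, fibronectin, from 460.3 ± 24.0 to 5270.4 ± 184 CPM. Of 8 tested regulators of metalloproteases 4 were higher and 2 lower in M1 medium (32.4% and 32.4% of all genes). LCN2, which binds MMP9, rose from 0.146 ± 0.0605 to 457 ± 25.7 CPM while MMP9 stayed under the filter, and RECK, a membrane inhibitor of MMPs, fell from 10.3 ± 0.495 to 6.22 ± 0.261 CPM. Among 11 tested genes of the plasminogen system and of serine proteases 6 were higher and 4 lower (32.4% and 32.4% of all genes). KLK2, a kallikrein of prostate cells, fell by 5.16 on the log2 scale and TMPRSS2, a membrane serine protease, by 3.22, and PLAU, urokinase, had no count in control and 23, 13.5 and 10 counts in M1 medium. Among 5 tested proprotein convertases, which activate many of these enzymes, FURIN and PCSK7 rose, by 0.31 and 0.20 on the log2 scale. None was lower (32.4% of all genes were higher and 32.4% lower), and the median of the 5 was -0.10. With IKK16 2 of the 5 were lower and none higher (13.8% and 13.4% of all genes).

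Of 14 AP-1 and ETS factors, known regulators of MMP genes, 10 were higher and 2 lower in M1 medium (32.4% and 32.4% of all genes). With IKK16 5 were higher and 5 lower (13.4% and 13.8%). JUN went from 57.8 ± 4.49 to 196 ± 10.6 CPM in M1 medium and was lower with IKK16 (log2 fold change -1.09), whereas FOS (0.81), ETV4 (0.89) and ETV5 (1.01), which also rose in M1 medium, were higher with IKK16. ELF3 rose from 35.1 to 456 CPM in M1 medium and was lower with IKK16 (-0.78). Of 10 other astacin and ADAM-like metalloprotease genes 3 were higher and 4 lower in M1 medium (32.4% and 32.4% of all genes). MME, neprilysin, fell by 0.85 on the log2 scale and was higher with IKK16 (0.67).

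Markers of LNCaP and of other cells were measured in the same libraries. Of 15 macrophage markers 8 were tested, and 5 were higher and 2 lower in M1 medium (32.4% and 32.4% of all genes). All 5 rose by at least 2-fold (10.2% of all genes), and the median log2 fold change of the 8 was 2.27. Among the 15, TYROBP had no count in any library and CD14, PTPRC and AIF1 had group means of at most 0.141 CPM. Without CSF1R, which was at 195 ± 8.75 CPM in M1 medium and 224 ± 1.43 CPM in control, the others summed to 6.32 to 7.67 CPM in control and 58.3 to 66.7 CPM in M1 medium, most of it CD68 and ITGAM. Of 9 fibroblast markers 3 were tested, 1 higher and 1 lower (32.4% and 32.4% of all genes), and COL1A2 had no count. The 9 LNCaP markers summed to 8316 to 8679 CPM in control, 2465 to 2570 CPM in M1 medium and 3215 to 3292 CPM with IKK16. Of these 9, 6 were lower and 2 higher in M1 medium (32.4% and 32.4% of all genes), the higher being KRT8 and FOLH1. The part of these shifts in the protease results was not tested.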

How the data were processed

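Polyadenylated RNA of 18 LNCaP libraries was analysed. Values in the file the authors deposited are expected counts for each RefSeq transcript, not normalised, in steps of 0.5. Per the submitters' processing notes the build was hg38 and the tools Trimmomatic, BWA 0.7.17 and HOMER 4.10. Not given in the sources used here were their roles, strand use and the handling of multiply matching reads. Each gene was represented by its coding transcript of highest total count, and expected counts were rounded to whole numbers. The test was that of edgeR 4.0.16 (R 4.3.3), on 28100 genes and all libraries, with 1 mean per group: TMM scaling, filterByExpr (17023 genes kept), quasi-likelihood test, two-sided, Benjamini-Hochberg adjustment over all genes, threshold 0.05. CPM are TMM-scaled. The SE of a log2 fold change is its size divided by the square root of F, and intervals are the change ± 1.96 SE. A group with no count was limited to 3 counts per library. Lengths and exon overlaps come from GENCODE 29. Scripts were tested on simulated data.

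Genes given with every library's value passed M1 against control or IKK16 against DMSO with at least 2-fold and reached 1 CPM in a group; all TIMPs, all genes called with M0 or M2 medium and, chosen after their values were seen, ADAM10, MMP12 and MMP1 were added. Of each pathway list the named genes are among the 4 largest changes that reached 1 CPM, except PLAU, RECK, FOS, JUN and HBEGF, chosen after their values were seen. The genes, lists and rules were chosen with earlier results of these data known. Alternatives were DESeq2 1.42.0, its size factors, other filters, 2 groups alone, a replicate block, other transcripts, each library left out, and, added later, removal of a length trend.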

Additional observations from a re-analysis of the deposited data

How the results depend on the processing

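Of the 22 calls in M1 medium against control, 19 held under every alternative run, and ADAMTS3, MMP15 and TIMP2 were lost when 1 library was left out; the number called ranged from 22 to 23 over the fits without 1 library. Of the 13 calls with IKK16 against DMSO, 8 held under every alternative, and ADAM15, ADAM28, MMP16, MMP19 and MMP7 were lost under some (9 to 13 without 1 library). M1 against M0 gave 26 to 28 calls without 1 library, M1 against M2 25 to 27, and IKK16 against control 15 to 20. M2 against M0 gave 0 calls in every fit. The 2 calls of M0 against control became 0 to 3 without 1 library. The 2 calls of M2 against control became 0 when only these groups were fitted, 1 after the length trend was removed and 0 to 2 without 1 library. The 1 call of DMSO against M1 became 3 with DESeq2, without a filter, with a filter of 1 CPM, with the longest transcript, with the highest of coding and noncoding transcripts and after the length trend was removed, 4 when only these groups were fitted, and 0 to 3 without 1 library; the cause was not tested. ADAM12, not called with IKK16 against DMSO (log2 fold change 0.02), changed sign with DESeq2 (-0.0054), and over the fits without 1 library ranged from -0.32 (without M1 with DMSO replicate 2) to 0.24, with -0.12 without M1 with IKK16 replicate 3.

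The labels number the replicates without saying what a number shares. Deviations of samples with the same number had correlations of -0.15 to 0.15. No strong shift shared by a number was seen, but this cannot show that the numbers pair no samples. With the replicate number as a block the calls were 22 for M1 against control, 2 for M0, 2 for M2, 26 and 25 for M1 against M0 and M2, 0 for M2 against M0, 14 for IKK16 against DMSO, 1 for DMSO against M1 and 18 for IKK16 against control. Depth limits the 30 genes under the filter, MMP12, ADAM18, ADAM28 and TIMP1, whose values rest on few counts. The fit without a filter on low counts called 26 genes in M1 medium against control.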
